A study of Capra hircus with 9 samples.

Results

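The miR-130 and miR-301 family, with its relative miR-454, is described here in the submandibular gland, a large salivary gland, of female Lubo goats at 3 ages. Its members are all entries of the deposited miRNA table named miR-130, miR-301 or miR-454, with any letter, arm or ending, which gave 15 of 2189 entries. Goat names, marked chi-, were carried by 9 of them, and the other 6 had names without a species that end in -x (here 5p arms) or -y (3p arms). The 9 small RNA libraries came from 9 healthy animals, 3 at 1 month, 3 at 12 months and 3 at 24 months, with no treatment and shared feeding and light. Single libraries are named by the numbers in their titles, which are 1, 2 and 3 for the 1-month goats, 3, 4 and 5 for those of 12 months and 2, 3 and 5 for those of 24 months.

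MicroRNAs are short RNAs that guide a silencing complex to messenger RNAs, mainly through the seed near their 5′ end. Each hairpin precursor can yield a 5p and a 3p mature arm. The 3p arms of miR-130a, miR-130b, miR-301a, miR-301b and miR-454 share 1 seed and so can recognise the same sites. miR-130a is best known from endothelial cells, where it represses anti-angiogenic homeobox genes, and miR-130 also represses PPARG, a regulator of fat cell formation. miR-301a is known for raising NF-kappaB activity by repressing the inhibitor NKRF, and miR-130b and miR-301b are made from 1 cluster in mammals.

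The sequences set the arms apart, and are shown as the deposited table lists them, 5′ to 3′ with T for U and with the seed (bases 2 to 8) in capitals. The 3p arms of the 5 hairpins carry the shared seed.
chi-miR-130a-3p: cAGTGCAAtgttaaaagggca
chi-miR-130b-3p: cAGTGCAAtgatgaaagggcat
chi-miR-301a-3p: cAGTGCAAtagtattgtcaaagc
chi-miR-301b: cAGTGCAAtgatattgtcaaagc
chi-miR-454-3p: tAGTGCAAtattgcttatagggt
The seed was found at bases 2 to 8 of 8 entries, or 0.366% of the 2189, and all 8 were family members: these 5 and miR-130-y, miR-301-y and miR-454-y. No family member had a sequence identical to that of another entry. Counting from the 5′ end, chi-miR-130a-3p differs from chi-miR-130b-3p by T11A and A13G, and chi-miR-301a-3p differs from chi-miR-301b by A10G and G11A. Whether the authors' alignment allowed mismatches is not given in the sources used here, so counts of such close pairs are uncertain to that degree.

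The 5p arms have seeds of their own. For the 5p arms of the miR-130b and miR-301 hairpins, a second feature is marked below, the run TTGCACT, which is the reverse complement of the shared 3p seed.
chi-miR-130b-5p: actctttccctgTTGCACTact
chi-miR-301a-5p: gctctgactttaTTGCACTac
miR-301-x: gctctgacgaggTTGCACTact
miR-130-x: cctctttccctgTTGCACTaca
This run was held by 15 of all entries (0.685%, searched on the listed strand only), 4 of them in the family, among others also by chi-miR-25-3p, chi-miR-92a-3p and chi-miR-92b. It was not found in chi-miR-130a-5p or chi-miR-454-5p. miR-130-x differs from chi-miR-130b-5p only by A1C and T22A, both end bases. miR-130-y begins with the full chi-miR-130a-3p sequence and runs on by 2 bases, miR-454-y and miR-454-x are longer forms of the goat miR-454 arms, and miR-301-y differs from chi-miR-301a-3p by G22C. By sequence these 5 are therefore close forms of goat-named entries and no separate evidence beside them, but the levels of miR-130-y took another course, given below. In the RefSeq gene table for assembly ARS1.2, MIR454 and MIR301A are direct neighbours within the span of SKA2, MIR130A lies between YPEL4 and SERPING1, and MIR130B and MIR301B lie on sequence not placed on a chromosome.

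Libraries held 8288492 to 13277448 counts in all. The markers of the labelled tissue were present: the secretory gland list (miR-148 and miR-375) took 1.38 to 8.53% of all counts in the 1-month libraries, 14.2 to 16.8% in those of 12 months and 16.9 to 17.9% in those of 24 months. One library stood apart, 1-month library 2, whose log2 levels correlated at 0.922 and 0.910 with the other 1-month libraries, against 0.985 between those 2. Its secretory gland share was the 1.38%, and its leukocyte list (miR-142, miR-150, miR-155, miR-223, miR-146 and miR-342) took 12.7% of counts against 3.73% and 5.78% in 1-month libraries 1 and 3. Of the gland list, chi-miR-148a-3p was low there, at 4430 CPM (defined below) against 60339 and 42094 CPM in 1-month libraries 1 and 3. miR-375-y was not, at 8352 CPM against 8603 and 8157 CPM. Because this library stood apart, the main differences from 1 month are also given without it. The family was selected on its CPM levels at 1 month against 12 and 24 months, which were known from these libraries, so every comparison with 1 month is a description: no p-value is given for a member, and calls are only counted beside their share over all entries.

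The family as a whole made up little of each library, and more at 1 month than later. It took 0.0993%, 0.178% and 0.0543% of counts in 1-month libraries 1, 2 and 3, with Wilson 95% intervals of 0.0974 to 0.101%, 0.176 to 0.180% and 0.0530 to 0.0557% that cover counting error only. At 12 months it took 0.00799%, 0.0106% and 0.00919% in libraries 3, 4 and 5, and at 24 months 0.00809%, 0.00969% and 0.00826% in libraries 2, 3 and 5. No later library came near the lowest 1-month library, while the 12-month and 24-month shares interleaved. The means were 0.111 ± 0.0626%, 0.00927 ± 0.00133% and 0.00868 ± 0.000878% (SD, n = 3 each). Much of the family total was chi-miR-130b-5p, which lacks the shared seed and made up 69.1 to 78.5% of family counts at 1 month and 30.1 to 47.6% later. Without it the family took 0.0264 ± 0.0130%, 0.00596 ± 0.000773% and 0.00492 ± 0.000803%, and the 1-month libraries 0.0213%, 0.0412% and 0.0168%. The 24-month share of the whole family differed from the 12-month share by less than the SD of either age (exact two-sided permutation p = 0.7, n = 3 and 3).

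Levels below are in CPM, counts per 1000000 of a library total scaled by TMM (trimmed mean of M-values, a factor that evens out differences in composition). Mature arms are 21 to 24 bases long and a read covers the whole molecule, so levels of different members are compared without a length term. Log2 fold changes and their standard errors (SE) come from 1 edgeR fit of all 9 libraries. Of the 15 entries, 11 passed its filter on low counts and 4 (miR-301-x, miR-301-y, miR-454-x and miR-454-y) did not. Over the 12-month and 24-month libraries alone only 6 pass: chi-miR-130b-5p, chi-miR-130a-3p, chi-miR-130b-3p, chi-miR-301a-3p, chi-miR-301a-5p and miR-130-y. The other 5 tested entries entered through their 1-month counts.

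**Figure D1:**
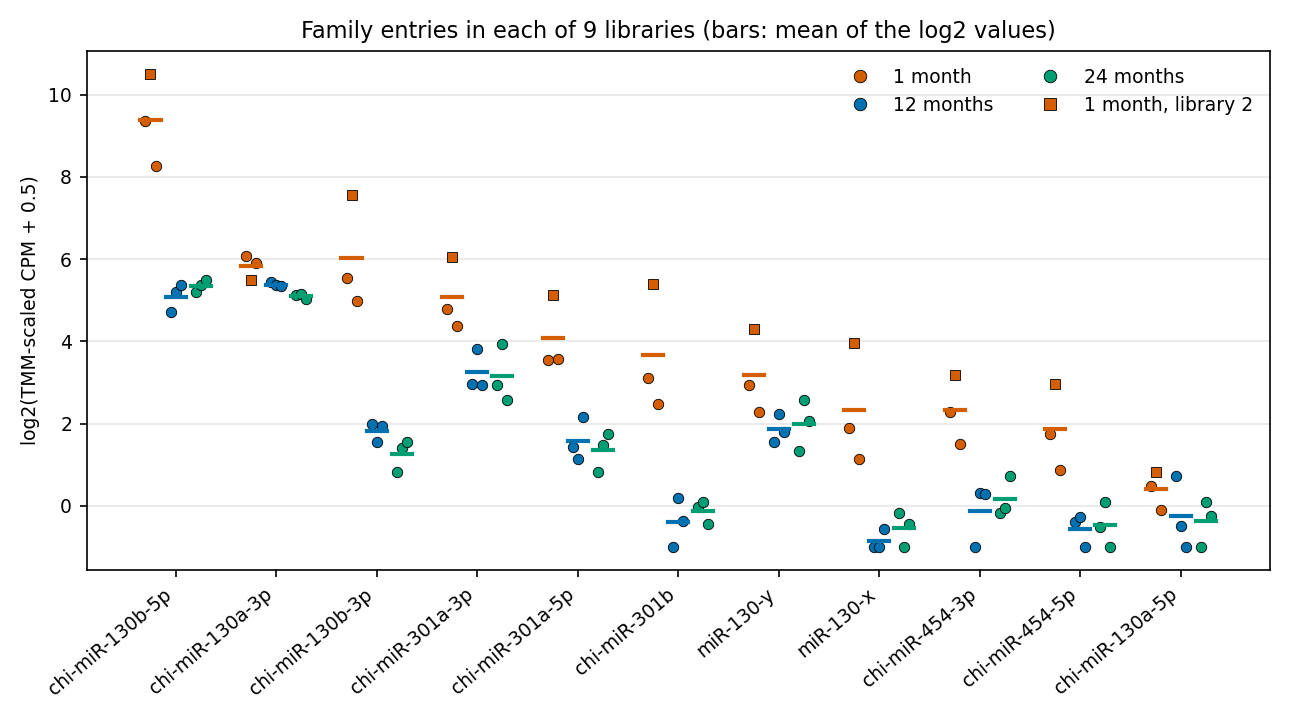
Level of each tested family entry as log2(CPM + 0.5) (vertical axis) in the 9 libraries; points are single libraries coloured by age, the square is 1-month library 2, and short bars are means of the 3 log2 values. chi-miR-130b-5p, chi-miR-130b-3p and chi-miR-301b sit far higher at 1 month than later, while chi-miR-130a-3p lies between 32.4 and 66.9 CPM throughout.

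chi-miR-130b-5p, the arm opposite the one that carries the family seed, was the most abundant member in the 1-month libraries. At 12 months chi-miR-130a-3p gave 43.6 ± 5.71% of family counts and chi-miR-130b-5p 35.5 ± 5.35%, and at 24 months 36.6 ± 3.88% and 43.5 ± 3.94% (SD, n = 3 each). It stood at 660, 1445 and 308 CPM in 1-month libraries 1, 2 and 3. At 12 months it stood at 25.6, 36.1 and 40.6 CPM, and at 24 months at 36.3, 40.8 and 44.3 CPM. Every 1-month library lay above every later one, and the 2 later ages overlapped. The fitted log2 fold change was −4.56 (SE 0.57) for 12 months against 1 month and −4.31 (0.57) for 24 months against 1 month. Without 1-month library 2 the values were −3.85 (0.36) and −3.60 (0.35). The near-identical miR-130-x had 39, 189 and 24 counts at 1 month against 0, 0 and 2 at 12 months and then 4, 0 and 2, at most 1.06% of the counts of chi-miR-130b-5p in any library. Pooled, it was 91.5 times higher at 1 month than at 12 months (95% counting interval 25.1 to 760), and 33.8 times (8.97 to 285) without 1-month library 2.

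Its partner arm chi-miR-130b-3p, which carries the shared seed, had the same course at a lower level. It stood at 46.4, 187 and 31.1 CPM in 1-month libraries 1, 2 and 3, at 3.48, 2.45 and 3.32 CPM at 12 months, and at 1.25, 2.16 and 2.42 CPM at 24 months. No ages overlapped for this arm, but 12 and 24 months nearly touched, at 2.45 CPM (23 reads) and 2.42 CPM (21 reads). Against 1 month the log2 fold change was −4.83 (SE 0.72) at 12 months and −5.50 (0.75) at 24 months, or −3.67 (0.37) and −4.34 (0.39) without 1-month library 2. That library held 4.83 times the mean of the other 1-month libraries.

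chi-miR-301b, the cluster neighbour of miR-130b, had at most 6 counts in any later library. Its counts were 100, 526 and 72 in 1-month libraries 1, 2 and 3, or 8.19, 41.8 and 5.08 CPM. At 12 months it had 0, 6 and 3 counts, and at 24 months 5, 5 and 2. Pooled over the 3 libraries of each age and scaled by TMM, the 1-month level was 56.3 times the 12-month level (95% counting interval 29.5 to 124) and 41.6 times the 24-month level (23.7 to 80.9). Without 1-month library 2 these ratios were 20.5 (10.5 to 45.6) and 15.1 (8.45 to 29.9). The fit gave log2 fold changes of −5.83 (SE 1.08) and −5.38 (1.05), and −4.38 (0.82) and −3.93 (0.79) without that library. miR-301-x, on the 5p side, had 22, 95 and 5 counts at 1 month and 0, 0 and 4 at 12 months. It had none at 24 months, so it was at least 29.1-fold lower there (9.50-fold without 1-month library 2), against a floor of 3 counts over the group.

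The miR-301a and miR-454 hairpins, which lie side by side, were also higher at 1 month in both arms. chi-miR-301a-3p stood at 27.3, 65.6 and 20.3 CPM at 1 month, at 7.34, 13.7 and 7.18 CPM at 12 months, and at 7.13, 14.9 and 5.41 CPM at 24 months. Its log2 fold change was −2.01 (SE 0.58) at 12 months and −2.04 (0.58) at 24 months against 1 month, and −1.36 and −1.40 without 1-month library 2. Its 5p arm chi-miR-301a-5p went from 11.1, 34.6 and 11.4 CPM to 2.19, 1.71 and 3.95 CPM and then 1.25, 2.27 and 2.88 CPM, with −2.85 (0.61) and −3.16 (0.62), or −2.12 and −2.42 without 1-month library 2. For both arms all 1-month libraries lay above all later ones. miR-301-y, the near copy of the 3p arm, had 4, 29 and 3 counts at 1 month and at most 3 in any later library.

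Both miR-454 arms were scarce. chi-miR-454-3p had 53, 108 and 33 counts at 1 month against 0, 7 and 8 at 12 months and then 4, 4 and 10, a log2 fold change of −3.31 (SE 0.92) and then −2.93 (0.90) against 1 month, or −2.71 and −2.33 without 1-month library 2. chi-miR-454-5p had 35, 91 and 19 counts at 1 month and at most 5 in any later library, with −4.29 (1.16) and −3.85 (1.12), or −3.45 and −3.01 without that library. Neither arm's ages overlapped with 1 month. miR-454-x and miR-454-y held 4 and 2 counts in all 9 libraries and allow no fold.

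chi-miR-130a-3p, the member known from endothelial cells, lay much closer to its 1-month level later on than its close relative chi-miR-130b-3p. It stood at 66.9, 44.6 and 59.1 CPM in 1-month libraries 1, 2 and 3, at 42.7, 41.0 and 39.9 CPM at 12 months, and at 34.6, 34.8 and 32.4 CPM at 24 months. In the library where the other tested members were highest, 1-month library 2, it had its lowest 1-month value, 0.707 times the mean of the other 1-month libraries. Its log2 fold change against 1 month was −0.46 (SE 0.33) at 12 months and −0.74 (0.33) at 24 months. Without 1-month library 2 the values were −0.64 and −0.91. Its longer form miR-130-y had 87, 243 and 62 counts at 1 month, 10.6%, 43.4% and 7.41% of the counts of chi-miR-130a-3p, against 5.72 to 15.7% in the 6 later libraries. Hence the longer form was highest in the library where the shorter one was lowest for its age, which was seen only on looking at the values. Over the 9 libraries the log2 levels of miR-130-y correlated at 0.353 with chi-miR-130a-3p and at 0.842 with chi-miR-130b-3p. Without 1-month library 2 these values were 0.544 and 0.636. chi-miR-130a-5p had 0 to 16 counts in any library, and its ages overlapped.

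Of the 11 tested members, 8 passed the edgeR threshold (adjusted p below 0.05) as lower at 12 months than at 1 month and 0 as higher, where 13.2% of all 937 tested entries were called lower and 5.98% higher. For 24 months against 1 month it was again 8 lower and 0 higher, where 17.5% of all entries were called lower and 8.75% higher. Both comparisons use the same 1-month libraries. The 3 that did not pass either were chi-miR-130a-3p, chi-miR-130a-5p and miR-130-y. The median log2 fold change of the members was −3.31 at 12 months and −3.16 at 24 months, against −0.02 and −0.06 over all entries tested. Between 12 months and 1 month, 10 of 11 did not overlap and lay lower, where 22.2% of all entries did, and for 24 months it was 9 of 11 where 25.8% did. As these contrasts led to the choice of the family, nothing further is read from the counts. The 12-month count was 5 without 1-month library 2, where both miR-454 arms and chi-miR-301a-3p no longer passed, beside 134 of all 967 tested entries. It was 4 of 12 tested without 12-month library 4, where the calls over all entries also fell, to 62 of 1000. The 24-month count was 5 without 24-month library 2 or without 24-month library 5, and 6 without 1-month library 2, where chi-miR-130a-3p was among them. These 24-month counts stand without the share over all entries, so nothing is read from them.

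**Figure D2:**
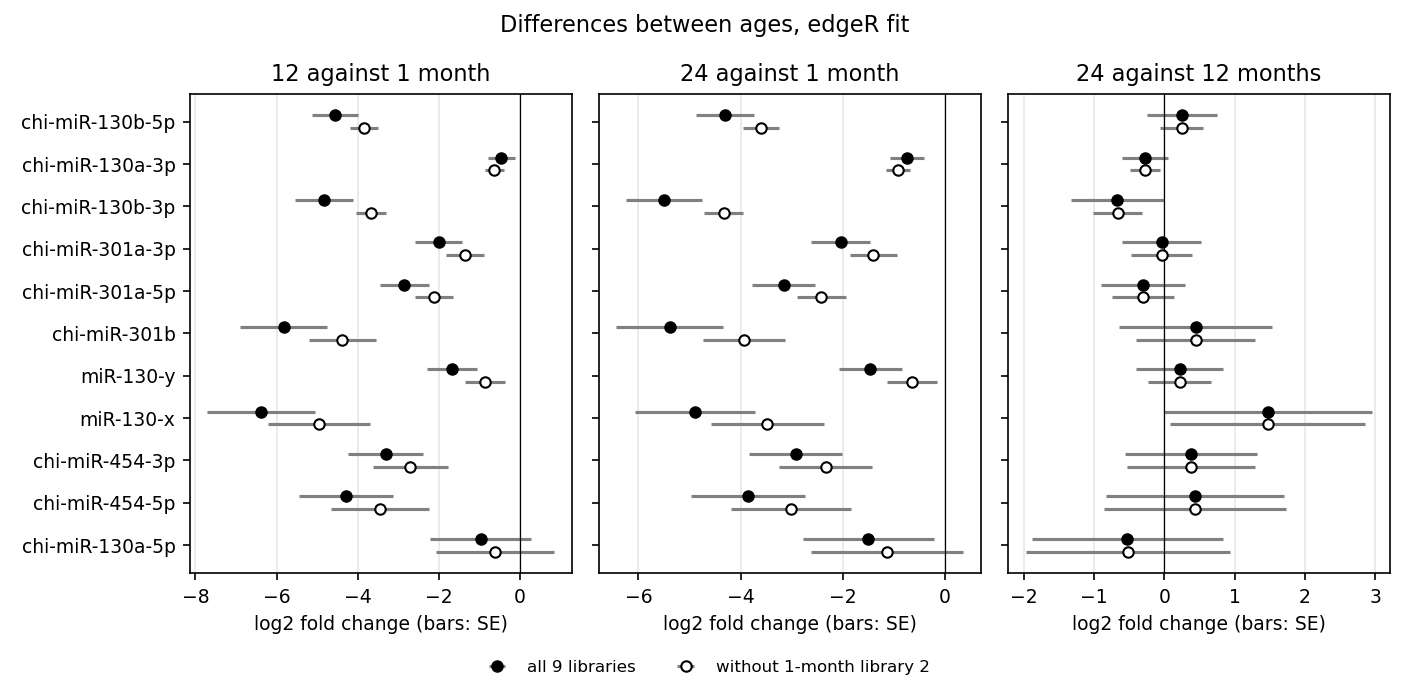
Log2 fold change with its standard error (horizontal axis) of the 11 tested entries in 3 comparisons of ages, with all 9 libraries (filled points) and without 1-month library 2 (open points). Against 1 month all 11 values are below 0 and most shrink without that library, while between 12 and 24 months they scatter from −0.67 to 1.48 around 0.

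The comparison of 24 with 12 months, which uses no 1-month library in the contrast itself, was tested. Of the 11 members, 5 had passed the filter only through their 1-month counts, so their later counts could show little. In a fit of the 12-month and 24-month libraries alone, 0 of the other 6 members and 0 of 810 entries passed. In the fit of all 9 libraries none of the 11 members passed (edgeR, adjusted p = 0.998 for each), and none had an unadjusted p below 0.05. None of the 937 entries passed either, so that 0% were called, with 40 at an unadjusted p below 0.05, and DESeq2 and limma voom also called 0. The fitted log2 fold change was 0.25 (SE 0.50) for chi-miR-130b-5p, −0.67 (0.66) for chi-miR-130b-3p, 0.45 (1.08) for chi-miR-301b and −0.28 (0.33) for chi-miR-130a-3p. For chi-miR-301a-3p it was −0.04 (0.56), and 0.01 with DESeq2 size factors. Without overlap, chi-miR-130b-3p and chi-miR-130a-3p were lower at 24 months, 2 of 11 members where 3.74% of all entries were, and 0 of 11 were higher, where 6.08% of all entries were. For chi-miR-130b-3p the nearest values were 2.45 CPM at 12 and 2.42 CPM at 24 months. The standard errors leave room for differences of a size that 3 goats per age could not resolve.

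Which member supplied the shared seed differed with age. Counts with the seed summed to 161, 370 and 123 CPM in 1-month libraries 1, 2 and 3, and to 57.7 ± 4.31 and 49.9 ± 7.31 CPM (SD, n = 3 each) at 12 and 24 months. chi-miR-130b-3p gave 28.9%, 50.6% and 25.4% of them in 1-month libraries 1, 2 and 3, but 3.92 to 6.21% at 12 months and 2.71 to 5.34% at 24 months. chi-miR-130a-3p gave 41.7%, 12.1% and 48.2% at 1 month, and 65.4 to 76.3% and 59.6 to 74.9% later. Thus chi-miR-130b-3p led in 1-month library 2 only, and chi-miR-130a-3p led in the other 8 libraries. chi-miR-301a-3p gave mean shares of 17.1 ± 0.594%, 16.0 ± 5.0% and 17.6 ± 7.05% at the 3 ages, although its own level was highest at 1 month. chi-miR-301b gave 6.86 ± 3.90% at 1 month and 0.505 ± 0.511% and 0.842 ± 0.291% later. Within libraries, which needs no scaling, there were 1.44, 0.238 and 1.90 reads of chi-miR-130a-3p per read of chi-miR-130b-3p in the 1-month libraries, against 12.0 to 16.7 in those of 12 months and 13.4 to 27.6 in those of 24 months.

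**Figure D3:**
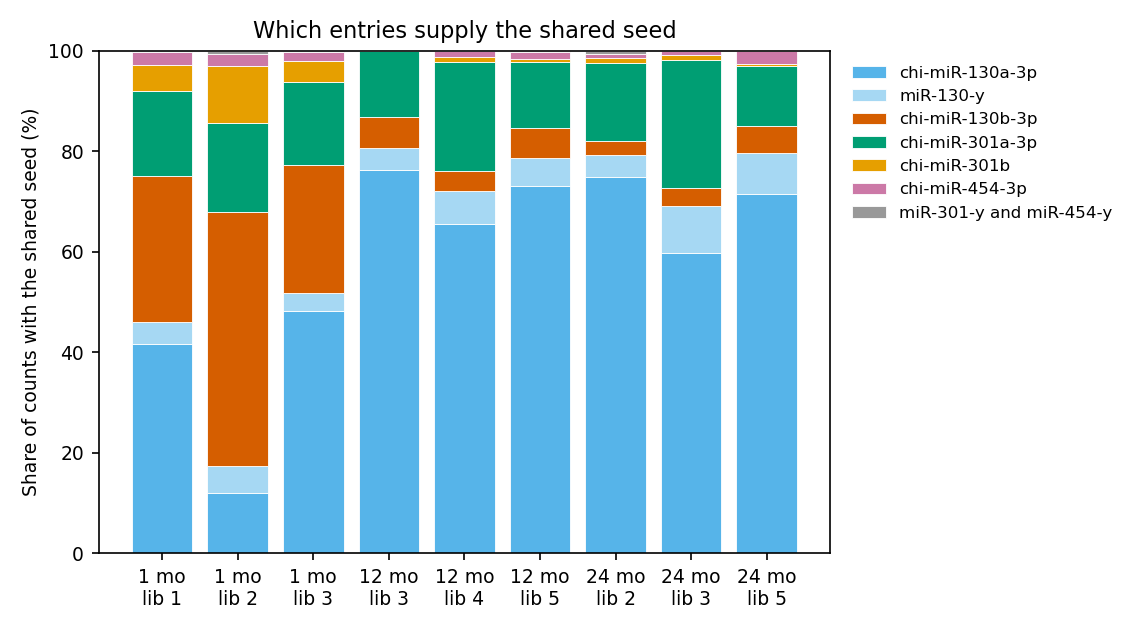
Share of the counts with the shared seed (vertical axis, percent) that each of its 8 entries supplied in each library, from 1 month (left) to 24 months (right). chi-miR-130a-3p supplies 12.1 to 48.2% at 1 month and 59.6 to 76.3% later, and the share of chi-miR-130b-3p shrinks from 25.4 to 50.6% to at most 6.21%.

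The arm that prevailed differed between the hairpins. From miR-130b, 5p reads outnumbered 3p reads in every library, with a 5p share of 93.4%, 88.5% and 90.8% in 1-month libraries 1, 2 and 3. The same share was 88.1%, 93.6% and 92.4% in 12-month libraries 3, 4 and 5, and 96.7%, 94.97% and 94.8% in 24-month libraries 2, 3 and 5. From miR-130a, the 5p arm gave at most 2.78% of reads in any library. From miR-301a it gave 11.1 to 36.0%, and from miR-454 42.8% of the pooled 1-month reads (Wilson 95% interval 37.6 to 48.1%), with later libraries at 2 to 10 reads each. Over the 156 goat-named hairpins with both arms listed and at least 100 reads, 92 had more 5p than 3p reads. Ligation of adapters favours some ends over others in small RNA libraries, and its part in the arm shares was not tested.

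**Figure D4:**
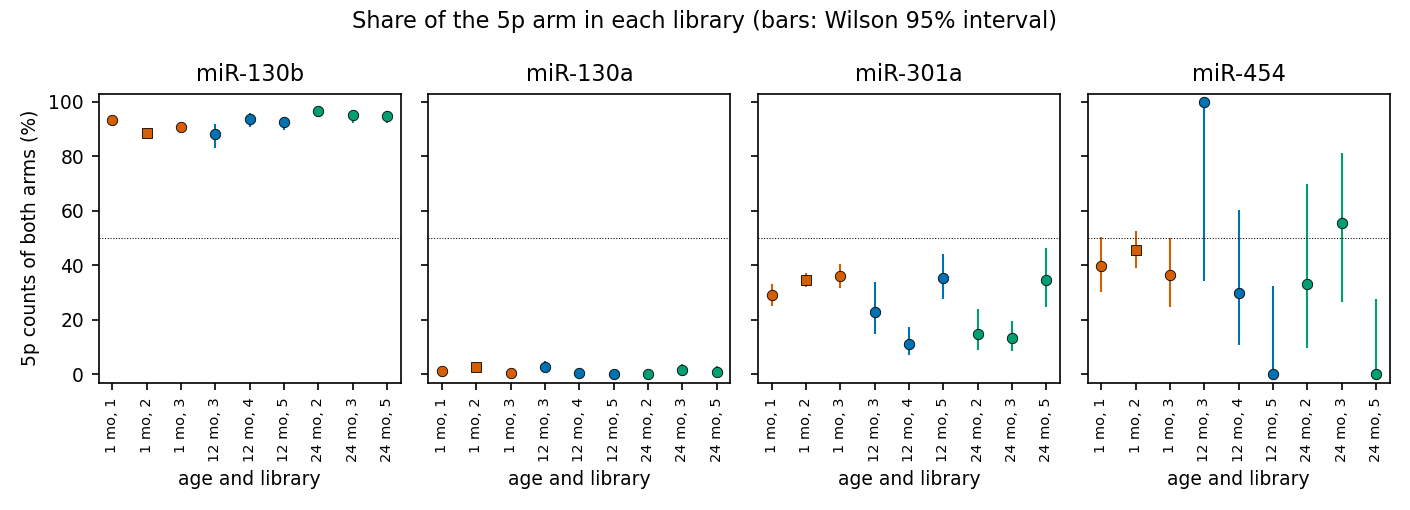
Share of 5p reads among the reads of both arms (vertical axis, percent, bars for the Wilson 95% interval) for 4 hairpins in the 9 libraries; the dotted line marks 50%. miR-130b lies between 88.1 and 96.7%, miR-130a at or below 2.78%, and the intervals of miR-454 are wide after 1 month.

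Per read of chi-miR-130b-3p there were 7.37 to 14.7 reads of chi-miR-130b-5p at 12 months and 18.3 to 29.0 at 24 months, without overlap. The difference was 0.96 on the log2 scale (exact two-sided permutation p = 0.1, the smallest that 3 against 3 allows, adjusted p = 0.3 over 3 ratios). It rests on 23 to 37 and 13 to 21 reads of the 3p arm in each library. For chi-miR-301b over chi-miR-130b-3p the difference was 1.61 (exact p = 0.2, adjusted p = 0.3), and for chi-miR-130a-3p over chi-miR-130b-3p it was 0.41 (exact p = 0.3, adjusted p = 0.3). With 3 goats against 3 none of these tests could pass 0.05, so they do not show whether the ratios differ. At 1 month the reads of chi-miR-130b-5p per read of the 3p arm were 14.2, 7.72 and 9.90, which overlaps the range at 12 months.

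The miRNAs most like the 3 main members were looked up over the 9 libraries, by Pearson r of log2(CPM + 0.5) against 496 named entries outside the family. The r values are a description, as the libraries fall into 1 month and later and share 1-month library 2. chi-miR-130b-3p was most like miR-3548-y (r = 0.994), miR-181-x (0.991), chi-miR-181b-5p (0.989), chi-miR-15b-5p (0.989) and chi-miR-17-5p (0.989). chi-miR-130b-5p was most like chi-miR-20b (0.997), chi-miR-363-3p (0.992), chi-miR-106a-5p (0.991), miR-128-y (0.990) and chi-miR-181b-5p (0.988). chi-miR-301b was most like chi-miR-363-3p (0.988), miR-142-y (0.987), miR-181-y (0.984), chi-miR-18a-5p (0.983) and chi-miR-106a-5p (0.982). Among these 12 different entries, 5 belong to the miR-17-92 proliferation list below, 3 are named miR-181 and 1 belongs to the leukocyte list. Without 1-month library 2, 3, 5 and 4 of each 5 stayed among the 5 most alike. By Spearman's rho only 2, 2 and 0 did.

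The leukocyte and proliferation lists were lower after 1 month, as most members were, and the epithelial list was higher. Their calls at 12 months stand beside 13.2% called lower and 5.98% called higher over all 937 tested entries. The leukocyte list took 3.73 to 12.7% of counts at 1 month, against 0.604 to 0.712% at 12 and 0.477 to 0.617% at 24 months, with 12 of 16 tested entries called lower and 0 higher at 12 months and 0 of 22 listed entries at 0 in all libraries. Its most abundant entry, miR-142-x, a mark of blood-forming cells, stood at 19026, 103086 and 31185 CPM at 1 month and at 884 to 1217 CPM in the later libraries. The proliferation list (miR-17-92 and its paralogs) took 2.19 to 7.07%, 0.739 to 0.874% and 0.712 to 0.735%, with 29 of 34 lower and 0 higher. The epithelial list (miR-200, miR-141, miR-429, miR-203 and miR-205) took 0.797 to 5.31% at 1 month, against 9.74 to 11.2% at 12 and 10.04 to 11.1% at 24 months, with 5 of 14 higher and 0 lower. The part of these lists' cells in the family's levels was not tested. In bulk tissue, fewer cells of a type and less RNA per cell cannot be told apart.

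At 12 months the shares of the endothelial, mesenchymal, red cell and muscle lists all overlapped with 1 month. At 24 months all of these but the red cell list did, whose shares all lay below those of 1 month. Beside the calls in these lists, 13.2% of all 937 tested entries were called lower and 5.98% higher at 12 months. At 24 months it was 17.5% lower and 8.75% higher, both against 1 month. The endothelial list, miR-126, took 0.441 to 1.45% at 1 month, against 0.781 to 0.939% at 12 and 0.693 to 0.748% at 24 months, with 0 of 4 entries called at 12 months and 1 higher at 24 months, both against 1 month. All its 24-month shares lay below all its 12-month shares. chi-miR-130a-3p and chi-miR-130b-3p also lay lower at 24 months without overlap, but in CPM. In CPM the most abundant endothelial entries overlapped. chi-miR-126-3p stood at 3307 to 5003 CPM at 12 and 3379 to 3955 CPM at 24 months. For chi-miR-126-5p it was 3135 to 4110 and 2804 to 3369 CPM. The part of endothelial cells in the levels of chi-miR-130a-3p and chi-miR-130b-3p was not tested. The mesenchymal list (miR-143, miR-145, miR-199 and miR-214) took 1.66 to 13.6%, 6.91 to 9.04% and 6.51 to 6.82%, with 1 of 19 higher and 0 lower in either comparison with 1 month. Its share too lay lower at 24 than at 12 months without overlap, while its most abundant entries chi-miR-143-3p and chi-miR-199a-5p overlapped in CPM. Between those ages 0 entries were called in the mesenchymal or the endothelial list. The red cell list (miR-144, miR-451 and miR-486) took 0.201 to 0.403%, 0.0735 to 0.360% and 0.101 to 0.116%, with 0 of 7 called at 12 months and 2 lower at 24 months against 1 month. The muscle list took 0.0150 to 0.0606%, 0.0229 to 0.247% and 0.0226 to 0.0428%, with 2 of 9 higher and 0 lower in either comparison with 1 month, and its highest share was in 12-month library 4. In each of these 4 lists, and in the epithelial and secretory gland lists, the lowest 1-month share was that of library 2.

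**Figure D5:**
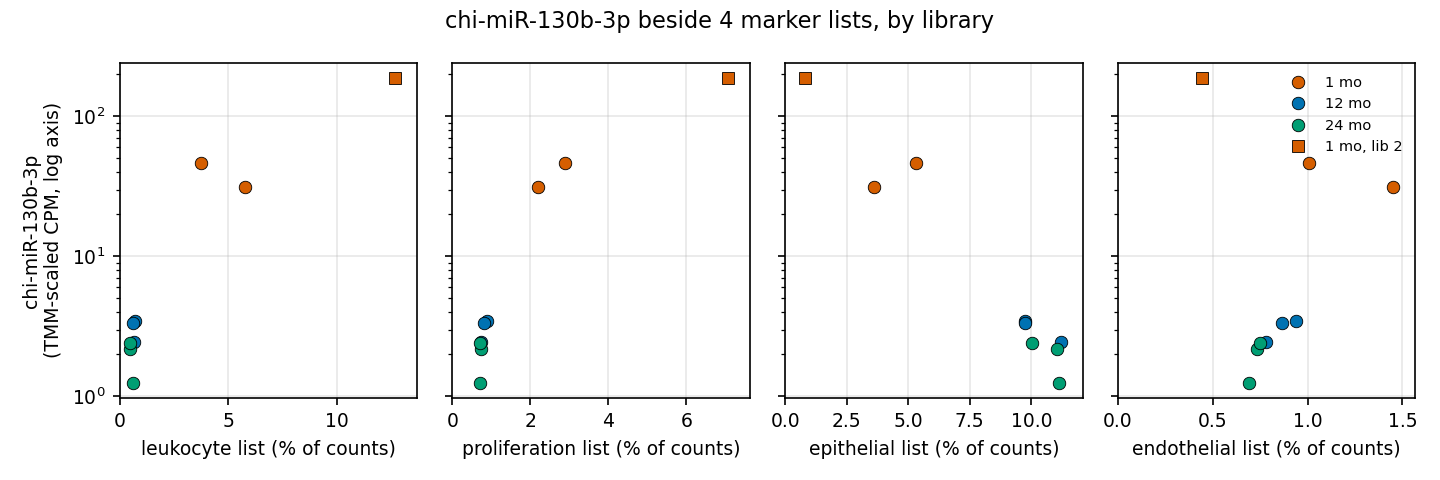
Level of chi-miR-130b-3p (vertical log axis, CPM) against the share of counts of the leukocyte, proliferation, epithelial and endothelial lists (horizontal axes, percent) in the 9 libraries; the square is 1-month library 2. The 3 libraries of 1 month lie to the right for the leukocyte and proliferation lists and to the left for the epithelial list, and for the endothelial list they lie on both sides of the later ones.

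miR-148 and miR-152 carry nearly the same seed shifted by 1 base: bases 1 to 7 of chi-miR-130b-3p, CAGTGCA, stand at bases 2 to 8 of 4 entries of the table, chi-miR-148a-3p, chi-miR-148b-3p, miR-148-y and miR-152-y. Together the miR-148 and miR-152 entries took 0.63 to 7.69% of counts at 1 month, against 12.4 to 14.6% at 12 and 14.4 to 14.8% at 24 months. At 12 months 2 of 7 tested entries were called higher, where 5.98% of all tested entries were. miR-148-y was among them, with a log2 fold change of 1.77 (SE 0.47), and stood at 2.32 (0.48) at 24 months against 1 month. chi-miR-148a-3p, the abundant gland member, had its lowest value in 1-month library 2, at 4430 CPM against 60339 and 42094 CPM in 1-month libraries 1 and 3. Its log2 fold change at 12 months, 1.92 (SE 0.67), did not pass while that at 24 months against 1 month, 2.06 (0.68), did, and at 12 months chi-miR-148b-3p stood at −0.32 (0.35). Their 5p arms chi-miR-148a-5p and chi-miR-148b-5p stood at 1.86 (0.64) and −0.01 (0.35) and did not pass either.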

How the data were processed

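Small RNA was sequenced from the submandibular gland of 9 goats. The authors deposited 1 table of raw read counts per mature miRNA entry with its sequence, 1 column per library, per the file headers. FastQC and Bowtie were used, per the submitters' processing notes. Their versions, the mismatch rule, the miRNA release and the build: not given in the sources used here. Ages were taken from the labels. Entries were filtered with edgeR (minimum count 10, minimum total 15), which left 937, and tested by 1 robust quasi-likelihood model of the 3 ages (edgeR 4.0.16, R 4.3.3, TMM factors). It had 6 residual degrees of freedom and a biological coefficient of variation of 0.534, with Benjamini-Hochberg adjustment over all entries at 0.05. Ratios and shares were compared with exact permutation tests (SciPy 1.17.1). Alternatives were 3 other scalings, DESeq2 1.42.0, limma voom 3.58.1, no filter, other sets of entries or libraries, the replicate number as a block, and each library left out. All family entries are named, with the entries of the same seed, the 5 most alike of each main member with at least 10 CPM at 1 age, the top 2 of each marker list where described, and goat-named miR-148. The members and lists were chosen with earlier results of these data known.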

Additional observations from a re-analysis of the deposited data

How the results depend on the processing

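The number of family members called lower at 12 months against 1 month, 8 of 11, was 4 to 10 on leaving out 1 library, with 11 or 12 tested. Over all entries 62 to 175 were called lower in the same settings, of 967 to 1012 tested. At 24 months against 1 month, also 8, the family number was 5 to 9. The numbers over all entries for the 24-month ranges are not given here. Under the other scalings, tests, filters and sets of entries or libraries, the replicate block aside, the counts were 7 to 10 and 7 to 9 (10 of 15 tested with no filter, 7 of 9 among goat-named entries), and no setting called a member higher. With the replicate block the counts were 0 and 5 (over all entries 4 lower and 0 higher, then 44 lower and 27 higher), with 2 residual degrees of freedom. Same-numbered libraries are different goats of different ages, and their deviations from the age means correlated between −0.204 and 0.166, so the numbers do not pair them. For 24 against 12 months the family count was 0 under every setting. The log2 value of chi-miR-301a-3p, −0.04, changed sign to 0.013 with DESeq2 size factors and with the DESeq2 test, 0.11 with identical sequences counted once and 0.082 with the replicate block, and ran from −0.35 to 0.42 on leaving out 1 library. On leaving out 1 library the log2 differences between 24 and 12 months in the 3 ratios ran from 0.67 to 1.17 (miR-130b arms), 0.56 to 2.53 (chi-miR-301b) and 0.11 to 0.62 (chi-miR-130a-3p). Of the 5 miRNAs most like chi-miR-130b-3p, 2 stayed by Spearman's rho and 3 without 1-month library 2. Of those of chi-miR-130b-5p and chi-miR-301b, 2 and 0 stayed by Spearman's rho. The cause of these changes was not tested. Later libraries held 0 to 10 counts of each miR-454 arm and of chi-miR-301b, which limits any comparison of 24 with 12 months for them.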
